A study of Homo sapiens with 16 samples.

Results

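The genes described here are 34 that act in the stress response of the endoplasmic reticulum (ER) and in protein folding there. They were picked by gene name from a table of 58721 genes, and all 34 names were found. They were sorted into an ATF4 branch of 8 genes, an XBP1 branch of 12 genes, an ATF6 branch of 11 genes and 3 general folding genes. Each gene was placed in 1 group only, also where branches share targets. RNA was measured in 16 libraries of 3' mRNA sequencing from RT112 and SCaBER, established human bladder cancer lines classed as luminal and basal in that order. Each line was transfected with 10 nM of siRNA, short RNA that silences a gene, and received siFOXA1.1 or siFOXA1.2 against the transcription factor gene FOXA1, or siControl.1 or siControl.2. Each siRNA had 2 libraries per line, numbered by experiment batch, and the knock-down was short, of a few days at most. RT112 was grown in RPMI and SCaBER in DMEM with serum, so that line and medium cannot be told apart. Untreated cells were not among the groups, and all cells had received a transfection.

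Cells that fold more protein than the ER can handle start the unfolded protein response, which is driven by sensors in the ER membrane. PERK, encoded by EIF2AK3, phosphorylates the initiation factor eIF2alpha, which slows protein synthesis and raises translation of ATF4, a transcription factor for amino acid, redox and stress genes. IRE1, encoded by ERN1, splices the XBP1 mRNA so that it encodes an active factor for degradation and secretory genes. ATF6 moves to the Golgi, is cut there and releases a factor that acts on chaperone genes such as HSPA5, which encodes BiP. ATF4 is thus governed largely at translation, XBP1 at splicing and ATF6 by cleavage. Counts of 3' ends register none of these steps, so the values below are RNA levels of the factors and of their known targets.

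Library totals were 6622473 to 7604581 counts in RT112 and 4528513 to 6914951 counts in SCaBER. Levels of single genes are given in CPM, a gene's count scaled to a common library size over all 16 libraries, and a floor of 3 counts corresponded to 0.392 to 0.647 CPM. Changes are log2 differences from edgeR's quasi-likelihood test, printed with the standard error, and adjusted p-values are Benjamini-Hochberg values over all genes tested, with 0.05 as the threshold. Epithelial EPCAM and CDH1 were present in every library, GATA3 lay at 230.1 to 451 CPM in RT112 and KRT14 at 369.7 to 1019.5 CPM in SCaBER. KRT20, a luminal marker, was at 0 to 0.733 CPM in RT112, and KRT19, an epithelial one, at 0 to 3.15 CPM in SCaBER. The basal genes KRT5 and S100A2 were present in RT112 too, at 83.2 to 257 and 72.5 to 154 CPM. In SCaBER they lay at 371 to 668 and 946 to 1492 CPM. The leukocyte genes PTPRC and CD3E and the fibroblast gene COL3A1 were at 0 in all 16 libraries. The fibroblast genes LUM and COL1A1 lay at 53.6 to 137 and 7.26 to 59.4 CPM in RT112, and the leukocyte gene CD14 reached 4.11 CPM in SCaBER. Mitochondrial genes took 25.7% and 28.2% of counts under RT112 siFOXA1.1 and 17.99% to 21.2% in the other RT112 libraries.

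The knock-down was checked on FOXA1 itself. In RT112 it lay at 35.2 and 30.0 CPM under siControl.1, 17.9 and 27.4 under siControl.2, 1.38 and 3.55 under siFOXA1.1 and 9.23 and 16.0 under siFOXA1.2. Both siFOXA1.1 libraries and both siFOXA1.2 libraries were thus below all 4 controls. The change was -3.45 ± 0.47, adjusted p = 1.4e-05 for siFOXA1.1 and -1.10 ± 0.39, adjusted p = 0.21 for siFOXA1.2. SCaBER had little FOXA1 RNA from the start, at 0.493 to 2.41 CPM under siControl and 0 to 0.938 under siFOXA1, too low to show a knock-down (siFOXA1.1 -2.20 ± 2.16, adjusted p = 0.63). Of the 34 genes, 32 passed the filter on low counts in each line. DERL3, a component of ER-associated degradation, had 0 counts in all 16 libraries, and ASNS, the asparagine synthetase and a standard ATF4 target, had 0 to 14 counts per library.

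Some members share short elements in their promoters. The members were picked as known genes of this response, so finding elements of its factors in them is no independent result. Promoters of 300 bases (250 before and 50 after the start of transcription) came from RefSeq on GRCh38.p14 and matched 31 of the 34 members; DERL1, DERL3 and PDIA3 had no entry. The ER stress element, ERSE, is the known binding site of ATF6 and XBP1 and reads CCAAT, 9 bases of any kind and CCACG. Searched on both strands, it stood in 27 of 35116 promoters (0.0769%), which include those of the members. It stood in 9 of the 42 promoters of members, and so in 7 of the 31 members. HSP90B1 held 2 matches, of which the match nearer the start is shown. The windows below run 5' to 3' on the gene's strand, with the fixed letters of the element in capitals, and a reverse match appears as CGTGG, 9 bases and ATTGG.
XBP1, chr22:28800591-28800633, minus strand, forward, 52 bases before the start: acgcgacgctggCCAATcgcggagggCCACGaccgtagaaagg
HSPA5, chr9:125241379-125241421, minus strand, forward, 66 bases before the start: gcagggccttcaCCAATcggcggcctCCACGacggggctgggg
CRELD2, chr22:49918542-49918584, plus strand, reverse, 80 bases before the start: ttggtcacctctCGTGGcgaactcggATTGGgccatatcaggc
PDIA6, chr2:10812841-10812883, minus strand, forward, 86 bases before the start: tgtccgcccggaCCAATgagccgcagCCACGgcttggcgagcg
HSP90B1, chr12:103930309-103930351, plus strand, reverse, 89 bases before the start: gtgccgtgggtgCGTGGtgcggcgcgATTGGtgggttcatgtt
CANX, chr5:179698766-179698808, plus strand, forward, 151 bases before the start: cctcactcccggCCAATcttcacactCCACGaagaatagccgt
CALR, chr19:12938372-12938414, plus strand, reverse, 225 bases before the start: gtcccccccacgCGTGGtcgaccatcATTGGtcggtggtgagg

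ERSE-II, a more compact element, reads ATTGG, 1 base of any kind and CCACG. It stood in 19 of 35116 promoters (0.0541%) and in 3 of the 42 promoters of members. These belong to 3 members, none of which held the longer element. HYOU1 held 2 matches, and the match nearer the start is shown.
HYOU1, chr11:119057262-119057296, minus strand, reverse, 79 bases before the start: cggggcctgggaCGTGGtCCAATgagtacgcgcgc
HERPUD1, chr16:56932013-56932047, plus strand, forward, 117 bases before the start: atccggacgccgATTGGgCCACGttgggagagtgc
SDF2L1, chr22:21642102-21642136, plus strand, reverse, 188 bases before the start: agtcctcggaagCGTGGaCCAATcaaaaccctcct
The element bound by ATF4 with C/EBP partners was searched as TGATG, 1 base of any kind and AA. It stood in 1270 of 35116 promoters (3.62%) and in 3 of the 42 promoters of members, from 3 members. They are shown because ASNS and CHAC1 are textbook ATF4 targets and because HERPUD1 held this element as well as ERSE-II. These short windows say nothing of sites elsewhere in a gene.
ASNS, chr7:97872457-97872488, minus strand, forward, 68 bases before the start: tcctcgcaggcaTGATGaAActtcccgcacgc
CHAC1, chr15:40953250-40953281, plus strand, reverse, 209 bases before the start: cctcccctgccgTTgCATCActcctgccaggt
HERPUD1, chr16:56931954-56931985, plus strand, reverse, 176 bases before the start: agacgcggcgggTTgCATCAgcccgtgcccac

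Under siControl the ER chaperones were the most abundant members in both lines. Levels between genes are compared in TPM, a deposited unit that corrects for the length of each gene, with the reserve that reads from 3' ends do not grow with gene length. CALR, the calreticulin gene, ranked highest at 622 ± 88.8 TPM in RT112 and 1341 ± 186 in SCaBER (SD, n = 4). HSP90B1, which encodes GRP94, followed in RT112 at 305 ± 91.8 TPM, and the libraries of CANX (237 to 274 TPM) and HSPA5 (177 to 341 TPM) overlapped its range of 220.3 to 388 TPM. In SCaBER the second place went to HSPA5 at 842 ± 116 TPM, whose libraries did not overlap those of HSP90B1 (529.9 to 668 TPM). Without the length scaling this order was not kept. In CPM the SCaBER controls spanned 1028 to 1437 for HSPA5 and 985 to 1138 for HSP90B1, which overlap, and in RT112 CANX (773 to 824 CPM) overlapped CALR (745 to 912 CPM). The sensors stood at the other end of the order. ERN1 lay at 0.517 ± 0.157 TPM in RT112 and 0.655 ± 0.408 in SCaBER, and EIF2AK3 at 3.05 ± 1.21 and 7.26 ± 1.57. Among the factors, ATF4 was well above XBP1 and ATF6, at 130.3 ± 7.38 TPM against 57.4 ± 7.93 and 11.3 ± 2.26 in RT112 and at 304 ± 31.1 against 48.3 ± 13.7 and 31.5 ± 5.58 in SCaBER.

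Between the lines, the members were mostly lower in RT112. Of 32 tested, 16 were lower and 2 higher in RT112 than in SCaBER under siControl, where 23.5% and 22.7% of all genes tested were called in these directions. The median member differed by -0.61 (log2, RT112 minus SCaBER) and the median of all genes by 0.024. The ATF4 branch was lower in 6 of 7 genes, the ATF6 branch in 7 of 11, the XBP1 branch in 1 of 11 and the general folding genes in 2 of 3. Both genes that were higher in RT112 belonged to the XBP1 branch.

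In the ATF4 branch, CHAC1, which breaks down glutathione, averaged 3.02 ± 2.54 CPM in RT112 and 11.6 ± 6.65 in SCaBER (SD, n = 4; log2 difference -2.13 ± 0.50, adjusted p = 0.003). TRIB3, a pseudokinase induced by ATF4, averaged 7.92 ± 4.97 and 31.5 ± 5.97 CPM (-2.04 ± 0.36, adjusted p = 0.0003). ATF4 itself differed by -0.82 ± 0.12, adjusted p = 4.3e-05, with every RT112 control library (149.8 to 181 CPM) below every SCaBER one (254 to 333). EIF2AK3 (-0.88 ± 0.34, adjusted p = 0.045), SESN2 (-0.81 ± 0.21, adjusted p = 0.0052) and PPP1R15A (-0.75 ± 0.22, adjusted p = 0.011) were also lower, while DDIT3 missed the threshold (-1.001 ± 0.46, adjusted p = 0.091). With the replicate block DERL2 of the XBP1 branch was also lower (adjusted p = 0.047). The call for EIF2AK3 was lost with DESeq2, without the filter and when any of 5 control libraries was left out.

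HSPA5, the BiP gene, had the largest difference of the ATF6 branch. It lay at 371 to 643 CPM in the RT112 controls and at 1028 to 1437 CPM in the SCaBER controls, with no overlap (-1.41 ± 0.11, adjusted p = 6e-08). SEL1L, the scaffold of the degradation ligase (-1.08 ± 0.24), ATF6 (-1.07 ± 0.17), SDF2L1 (-0.88 ± 0.26), CALR (-0.70 ± 0.088), HYOU1 (-0.61 ± 0.18) and HSP90B1 (-0.60 ± 0.091) were lower in RT112 as well. PDIA3 (-0.79 ± 0.11) and CANX (-0.62 ± 0.10), which work on glycoproteins, followed the same direction, and P4HB was at 0.0039 ± 0.12, adjusted p = 0.99. In the XBP1 branch PDIA6 was lower (-0.58 ± 0.094, adjusted p = 0.00016). XBP1 went the other way, with 88.8 ± 17.2 CPM in RT112 and 55.6 ± 14.1 in SCaBER (0.68 ± 0.15, adjusted p = 0.0016), as did DNAJC3, a BiP co-chaperone (0.65 ± 0.17, adjusted p = 0.0058). XBP1 was thus higher in the line in which 7 genes of the ATF6 branch were lower.

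**Figure D1:**
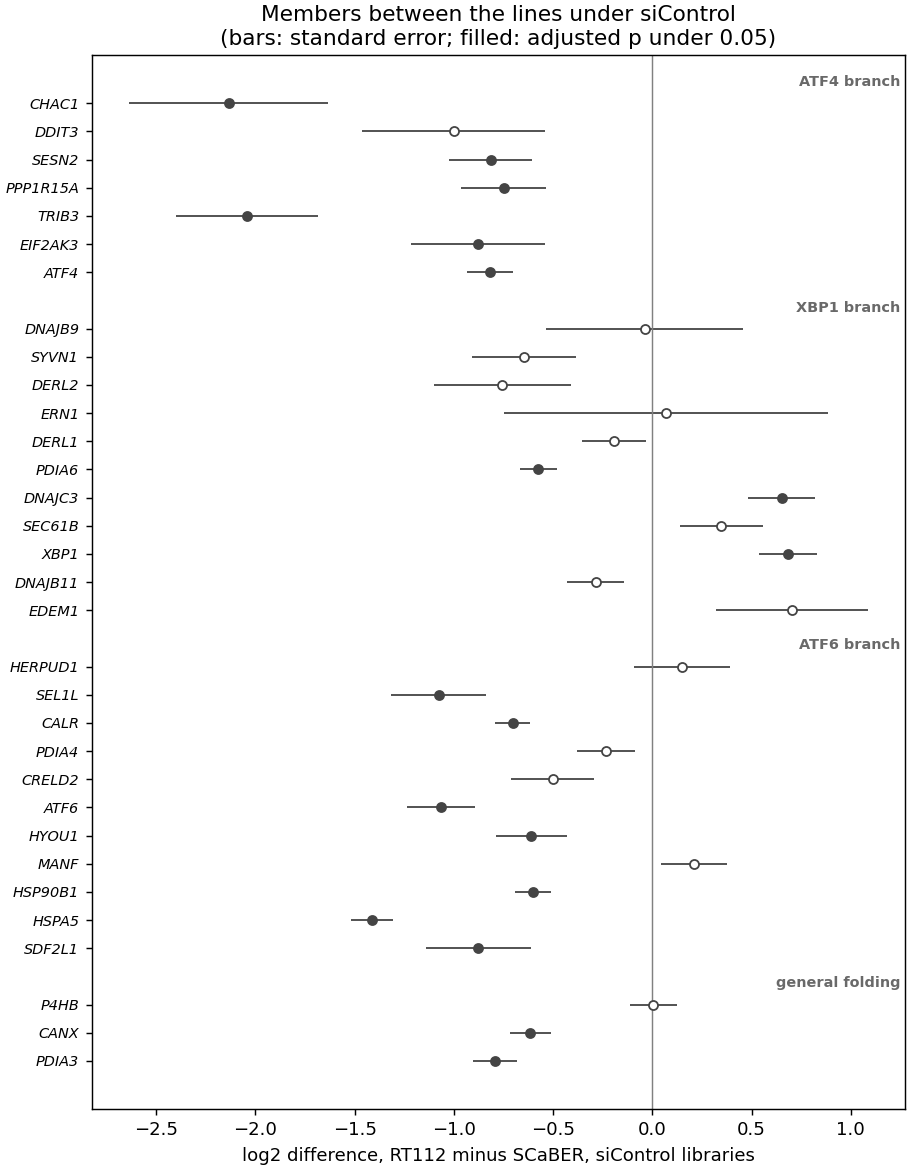
Log2 difference of each tested member between the lines under siControl, RT112 minus SCaBER, grouped by branch; points are estimates over 4 libraries a line, bars are standard errors and filled points passed an adjusted p of 0.05. Filled points sit left of 0 for 16 members, led by CHAC1, TRIB3 and HSPA5, and right of 0 for XBP1 and DNAJC3.

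Under siFOXA1.1 in RT112, 16 of the 32 tested members rose and 0 fell by edgeR with TMM scaling. The 16 genes that rose were 3 of 7 tested in the ATF4 branch, 6 of 11 in the XBP1 branch, 6 of 11 in the ATF6 branch and 1 of 3 general folding genes, against 14.0% of all genes tested called higher and 15.1% called lower. DESeq2 also called 16 higher and 0 lower, and at an unadjusted p under 0.05 edgeR had 1 member lower. The median change was 1.12 for the ATF4 branch, 0.63 for the XBP1 branch, 0.48 for the ATF6 branch and 0.011 for general folding, beside -0.021 for all genes. All 16 were above the mean of their controls in both batches. The siFOXA1.1 libraries also had the highest mitochondrial shares of the line, as given above, and the part of that in the result was not tested. Scaling by library totals instead moved the median of all genes by -0.12, and 12 members were then called, 11 higher and 1, ATF4, lower.

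**Figure D2:**
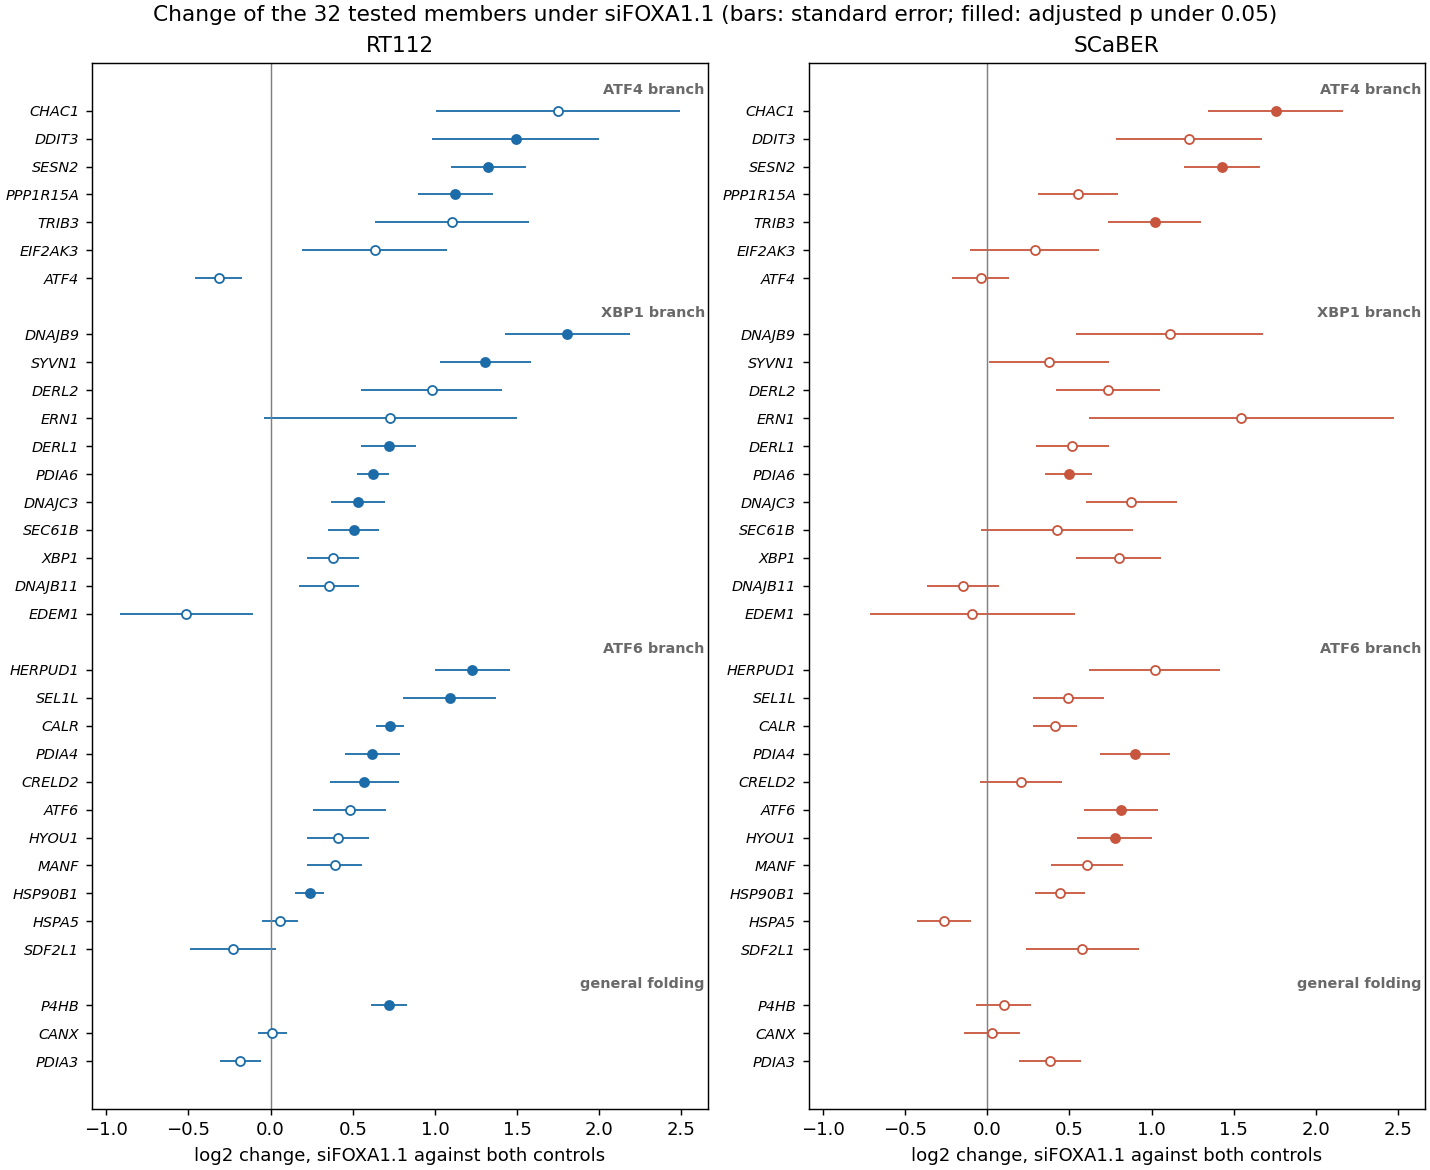
Log2 change of the 32 tested members under siFOXA1.1 against both controls, by branch, in RT112 (left) and SCaBER (right); bars are standard errors and filled points passed an adjusted p of 0.05. In RT112 16 points are filled and in SCaBER 7, all to the right of 0, while HSPA5, CANX and ATF4 lie close to or below 0 in both lines.

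The ATF4 branch in RT112 was led by stress effectors. DDIT3, which encodes the pro-apoptotic factor CHOP, lay at 7.81 and 6.46 CPM under siControl.1, 2.48 and 2.28 under siControl.2, 13.7 and 9.36 under siFOXA1.1 and 6.01 and 8.60 under siFOXA1.2. Both siFOXA1.1 libraries were above all 4 controls, but the controls themselves split by siRNA. The change was 1.49 ± 0.51, adjusted p = 0.032, and 0.70 ± 0.60 against siControl.1 alone. The call was kept in 6 of 14 alternatives, and it was also lost with library totals, without the filter and in 5 fits with 1 library left out (1.18, adjusted p = 0.21 without siFOXA1.1 replicate 1). SESN2, a sestrin that restrains mTORC1 and is induced by ATF4, was steadier, at 27.1 and 35.2 CPM under siControl.1, 19.8 and 19.9 under siControl.2, 57.2 and 66.5 under siFOXA1.1 and 30.5 and 39.9 under siFOXA1.2. It rose 2.51-fold (1.33 ± 0.23, adjusted p = 0.00015) and passed under every alternative tried.

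PPP1R15A, or GADD34, brings the phosphatase that reverses eIF2alpha phosphorylation. Its RT112 levels were 40.8 and 56.3 CPM under siControl.1, 22.7 and 36.5 under siControl.2, 85.3 and 78.6 under siFOXA1.1 and 28.1 and 38.2 under siFOXA1.2. It rose under siFOXA1.1 (1.12 ± 0.23, adjusted p = 0.0008), above every other library of the line. CHAC1 and TRIB3 changed by 1.75 ± 0.74 and 1.102 ± 0.47 without passing (adjusted p = 0.085 and 0.085), CHAC1 at only 0.662 to 6.40 CPM in the controls. The factor at the head of the branch did not share the rise. ATF4 lay at 166 and 181 CPM under siControl.1, 169 and 149.8 under siControl.2, 116 and 149 under siFOXA1.1 and 152 and 134 under siFOXA1.2, a change of -0.32 ± 0.14, adjusted p = 0.11, which passed as lower with library totals (-0.44, adjusted p = 0.023) and without siFOXA1.1 replicate 2 (-0.51, adjusted p = 0.03). EIF2AK3 was at 0.63 ± 0.44, adjusted p = 0.31. EIF2AK3 lay at 8.34 and 13.7 CPM under siControl.1, 4.70 and 7.39 under siControl.2, 11.4 and 13.7 under siFOXA1.1 and 7.62 and 9.97 under siFOXA1.2, which overlapped the controls.

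In the XBP1 branch the largest rise was that of DNAJB9, or ERdj4, a BiP co-chaperone. It was measured at 10.5 and 7.23 CPM under siControl.1, 4.31 and 8.06 under siControl.2, 24.9 and 26.5 under siFOXA1.1 and 12.2 and 8.74 under siFOXA1.2. The siFOXA1.1 libraries exceeded all others of the line, and the rise was 3.50-fold (1.81 ± 0.38, adjusted p = 0.0012). SYVN1, the ubiquitin ligase HRD1 of ER-associated degradation, was at 25.9 and 17.5 CPM under siControl.1, 14.9 and 14.4 under siControl.2, 53.9 and 33.7 under siFOXA1.1 and 25.1 and 30.0 under siFOXA1.2. It rose by 1.31 ± 0.28, adjusted p = 0.0012. DERL1, which helps move proteins out of the ER, changed by 0.72 ± 0.17, adjusted p = 0.0024, PDIA6, a disulfide isomerase, by 0.63 ± 0.10, adjusted p = 5.3e-05, DNAJC3 by 0.53 ± 0.17, adjusted p = 0.02 and SEC61B, a subunit of the translocon, by 0.51 ± 0.16, adjusted p = 0.018. DNAJB9, SYVN1 and PDIA6 passed under every alternative, whereas DERL1, DNAJC3 and SEC61B were lost against siControl.2 alone. DNAJC3 and SEC61B were also lost with library totals and without siControl.2 replicate 1 or siFOXA1.1 replicate 2.

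ERN1 and XBP1 did not pass in RT112. ERN1 was low, at 4.10 and 3.38 CPM under siControl.1, 2.09 and 2.02 under siControl.2, 4.62 and 4.52 under siFOXA1.1 and 2.93 and 8.74 under siFOXA1.2 (0.73 ± 0.77, adjusted p = 0.52). XBP1 was at 96.5 and 109.5 CPM under siControl.1, 73.9 and 75.4 under siControl.2, 122 and 104 under siFOXA1.1 and 57.7 and 69.2 under siFOXA1.2, so that siFOXA1.1 overlapped siControl.1 and lay above siControl.2 (0.38 ± 0.16, adjusted p = 0.081). DERL2 (0.98 ± 0.43), DNAJB11 (0.36 ± 0.18) and EDEM1 (-0.51 ± 0.40) were not called either, with adjusted p-values of 0.095, 0.16 and 0.37.

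The ATF6 branch divided into genes that were called higher and genes, HSPA5 among them, that were not. HERPUD1, a membrane protein of ER-associated degradation, lay in RT112 at 23.2 and 27.8 CPM under siControl.1, 27.5 and 33.3 under siControl.2, 72.3 and 56.99 under siFOXA1.1 and 40.1 and 28.5 under siFOXA1.2. It rose 2.34-fold (1.23 ± 0.23, adjusted p = 0.00037), clear of all controls. CALR was at 845 and 745 CPM under siControl.1, 906 and 912 under siControl.2, 1439.8 and 1347 under siFOXA1.1 and 1138 and 1042 under siFOXA1.2, and rose by 0.72 ± 0.086, adjusted p = 2.4e-06. HSPA5, the best known reporter of ER stress, lay at 409 and 371 CPM under siControl.1, 643 and 496 under siControl.2, 500.1 and 473 under siFOXA1.1 and 547 and 513 under siFOXA1.2. Its siFOXA1.1 libraries lay between the lowest and the highest control, and the change was 0.057 ± 0.11, adjusted p = 0.75.

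SEL1L, the partner of SYVN1, was at 21.0 and 9.69 CPM under siControl.1, 49.1 and 32.4 under siControl.2, 49.9 and 56.2 under siFOXA1.1 and 28.1 and 41.5 under siFOXA1.2. It was called (1.09 ± 0.28, adjusted p = 0.006), but the change was 1.79 ± 0.35 against siControl.1 and 0.39 ± 0.33 against siControl.2. PDIA4, a disulfide isomerase, was at 34.3 and 38.8 CPM under siControl.1, 80.7 and 82.2 under siControl.2, 78.0 and 88.3 under siFOXA1.1 and 90.0 and 106 under siFOXA1.2, and its call (0.62 ± 0.17, adjusted p = 0.0079) rested on siControl.1 in the same way, with 1.196 ± 0.20 against siControl.1 and 0.044 ± 0.19 against siControl.2. It was also lost without siFOXA1.1 replicate 2 (0.53, adjusted p = 0.074). CRELD2 (0.57 ± 0.21, adjusted p = 0.048) and HSP90B1 (0.24 ± 0.087, adjusted p = 0.046) were near the threshold. HSP90B1 was at -0.073 ± 0.10 against siControl.2 alone, and both calls were lost there. The HSP90B1 call was kept in 3 of 14 alternatives and lost in every fit with 1 library left out, and the CRELD2 call was kept in 6 of 14. ATF6 was at 55.4 and 34.3 CPM under siControl.1, 43.2 and 47.03 under siControl.2, 58.2 and 66.7 under siFOXA1.1 and 59.04 and 43.0 under siFOXA1.2. ATF6 (0.48 ± 0.22), HYOU1 (0.41 ± 0.19), MANF (0.39 ± 0.17) and SDF2L1 (-0.23 ± 0.26) had adjusted p-values of 0.11, 0.11, 0.089 and 0.55. Of the general folding genes P4HB rose (0.72 ± 0.11, adjusted p = 4e-05), and CANX (0.011 ± 0.088) and PDIA3 (-0.18 ± 0.12) did not pass.

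**Figure D3:**
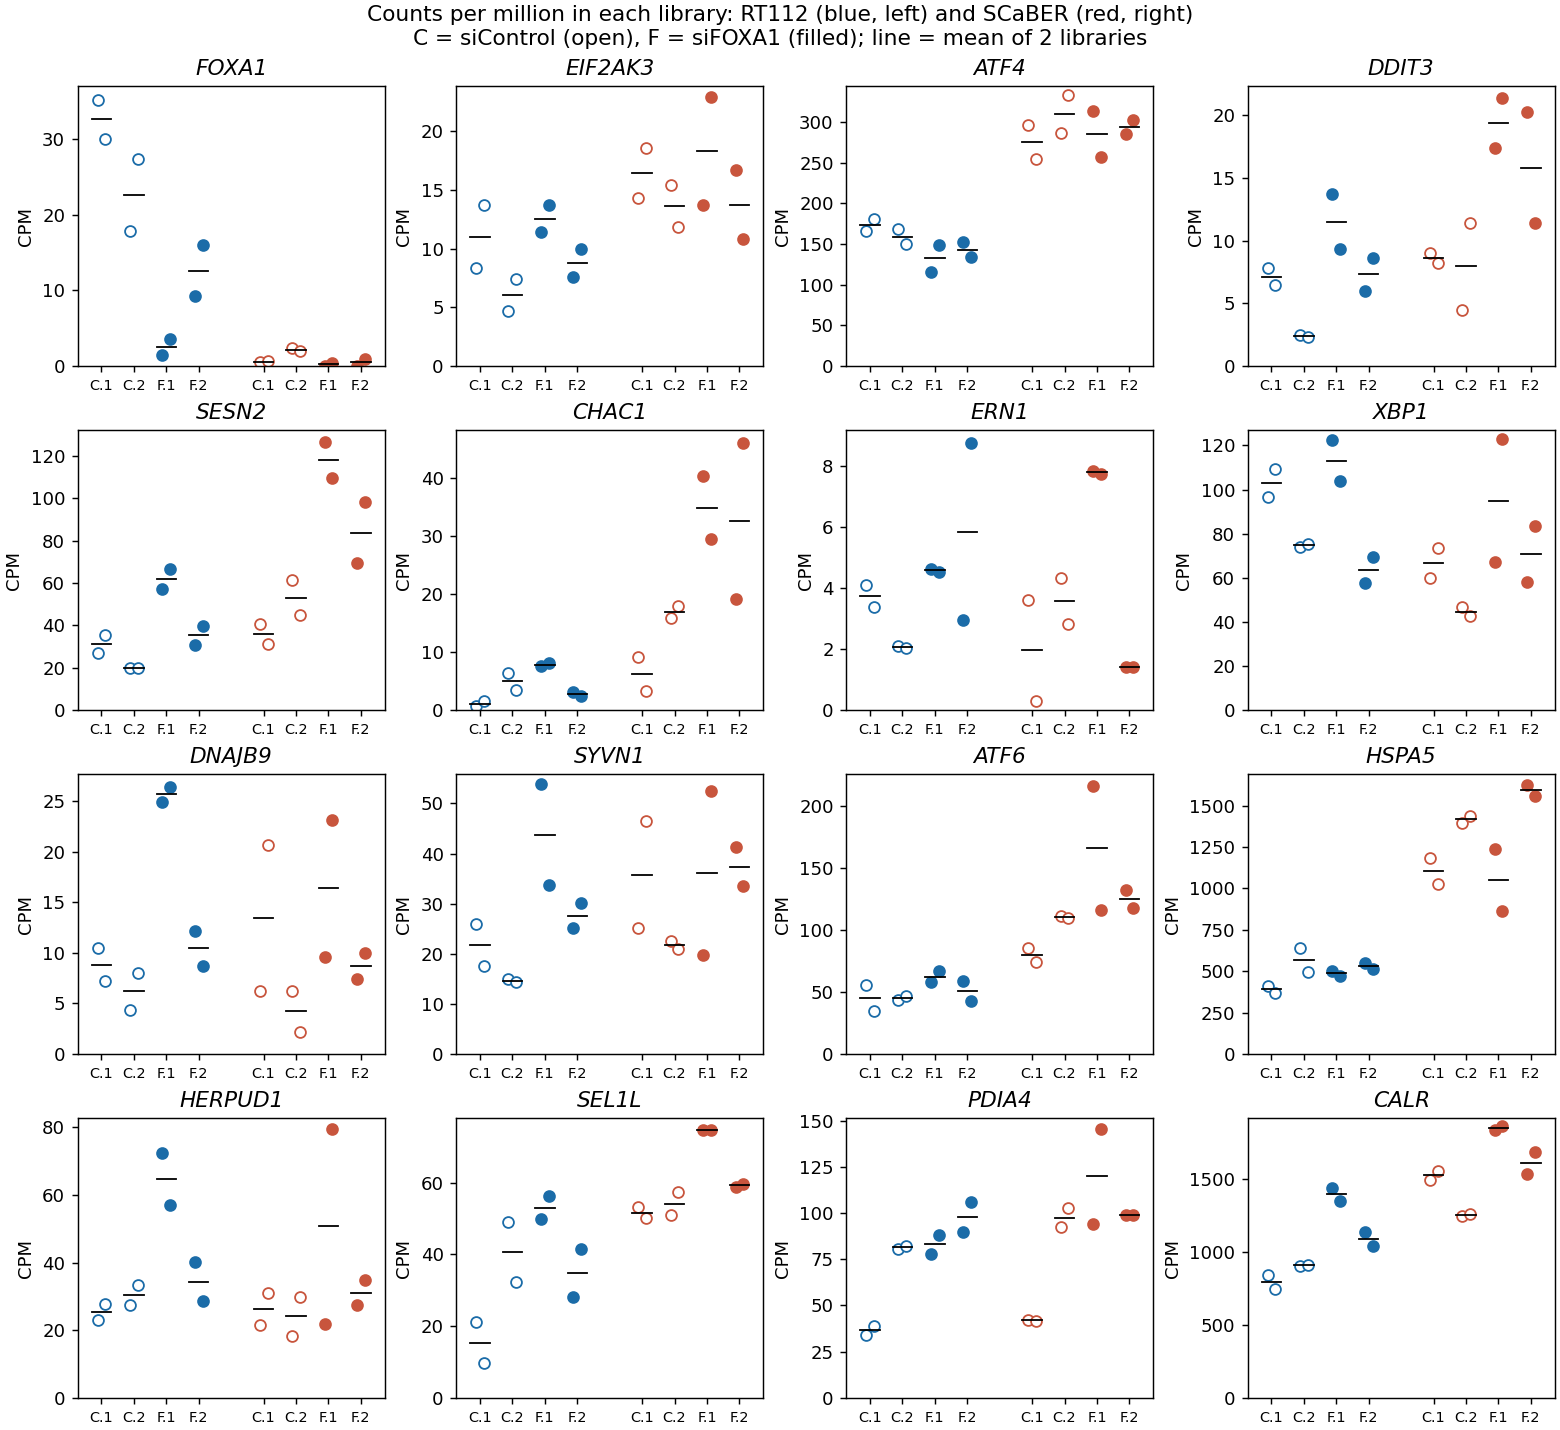
CPM of FOXA1 and 15 members in each of the 16 libraries, RT112 in blue at left and SCaBER in red at right of each panel; open points are siControl.1 and siControl.2 (C.1, C.2), filled points siFOXA1.1 and siFOXA1.2 (F.1, F.2), and lines are means of 2 libraries. DNAJB9, SESN2, HERPUD1 and CALR are highest under siFOXA1.1 in RT112, PDIA4 is lowest under siControl.1 in both lines, and HSPA5 is higher in all SCaBER than in all RT112 libraries.

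The 2 control siRNAs did not give the same levels of these genes. In RT112, 4 members were lower under siControl.1 than under siControl.2 (1.01% of all genes were called lower) and 0 were higher (edgeR; 4 at an unadjusted p under 0.05 and 0 with DESeq2). They all belonged to the ATF6 branch, namely PDIA4 (-1.15 ± 0.20, adjusted p = 0.003), SEL1L (-1.39 ± 0.35, adjusted p = 0.039), HSP90B1 (-0.62 ± 0.10, adjusted p = 0.0019) and HSPA5 (-0.54 ± 0.13, adjusted p = 0.031), and PDIA6 joined them with the replicate block (adjusted p = 0.049). In SCaBER 0 members passed (0.0671% of all genes), with 3 at an unadjusted p under 0.05 and 1, PDIA4, with DESeq2. PDIA4 had the same split there, at 42.4 and 41.8 CPM under siControl.1 and 92.3 and 103 under siControl.2 (-1.22 ± 0.26, adjusted p = 0.12), and it passed with the replicate block (-1.21 ± 0.25, adjusted p = 0.03). The number of RT112 calls differed with the control. Against siControl.1 alone 17 members passed, all higher, where 1488 of all 13462 genes were called higher. Against siControl.2 alone 10 members passed, all higher, where 1512 genes were. Those 10 were DDIT3, SESN2, PPP1R15A, DNAJB9, SYVN1, PDIA6, XBP1, HERPUD1, CALR and P4HB, of which 8 also passed against siControl.1 alone, all but DDIT3 and XBP1.

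**Figure D4:**
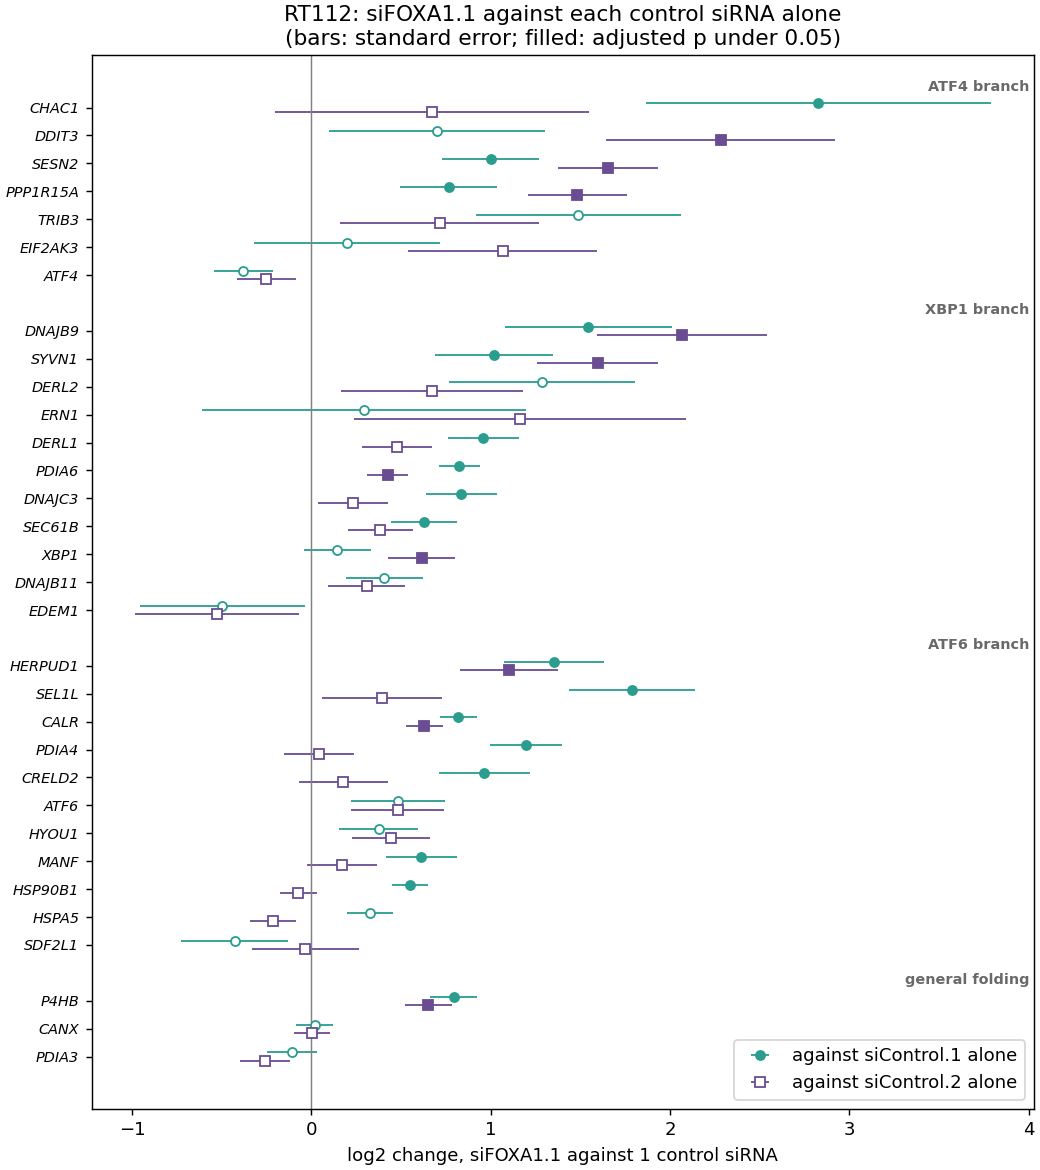
Log2 change of the members under RT112 siFOXA1.1 against siControl.1 alone (green circles) and siControl.2 alone (purple squares); bars are standard errors and filled symbols passed an adjusted p of 0.05. The symbols lie far apart for DDIT3, SEL1L, PDIA4, CRELD2 and HSP90B1 and close together for HERPUD1, CALR, P4HB and ATF6.

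In SCaBER, siFOXA1.1 raised 7 members and lowered 0 of 32 (edgeR; 0 lower at an unadjusted p under 0.05 and with DESeq2), where 3.80% of all genes were called higher and 4.07% lower. They were 3 of the ATF4 branch, 1 of the XBP1 branch and 3 of the ATF6 branch. Branch medians were 1.02, 0.52 and 0.58, with 0.10 for general folding and 0.014 for all genes. DESeq2 called 11. The fit with the replicate block called 11 as well, adding XBP1 (adjusted p = 0.041), DNAJC3 (0.015), HSP90B1 (0.041) and CALR (0.04). Against siControl.1 alone 4 members passed, all higher, where 281 of all 13407 genes were called higher. Against siControl.2 alone 1 member, SESN2, passed, where 342 genes were called higher.

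CHAC1 had the largest called rise in SCaBER, with libraries at 9.20 and 3.30 CPM under siControl.1, 15.9 and 17.9 under siControl.2, 40.3 and 29.4 under siFOXA1.1 and 19.2 and 45.9 under siFOXA1.2. All 4 siFOXA1 libraries exceeded the 4 controls (1.76 ± 0.41, adjusted p = 0.015 for siFOXA1.1). SESN2 was at 40.7 and 31.2 CPM under siControl.1, 61.3 and 44.8 under siControl.2, 127 and 109.5 under siFOXA1.1 and 69.2 and 98.0 under siFOXA1.2, also without overlap. It rose 2.69-fold under siFOXA1.1 (1.43 ± 0.23, adjusted p = 0.0013), and of the 7 called members it was the one that kept its call under every alternative. TRIB3 lay at 30.9 and 29.4 CPM under siControl.1, 25.8 and 39.9 under siControl.2, 47.7 and 79.7 under siFOXA1.1 and 43.3 and 33.8 under siFOXA1.2 (1.02 ± 0.28, adjusted p = 0.038). Its call was lost without siFOXA1.1 replicate 2 (0.595, adjusted p = 0.37), without siControl.2 replicate 1 and against either control alone. DDIT3 was at 9.03 and 8.24 CPM under siControl.1, 4.49 and 11.4 under siControl.2, 17.4 and 21.4 under siFOXA1.1 and 20.2 and 11.4 under siFOXA1.2, above the controls under siFOXA1.1 but short of the threshold (1.23 ± 0.45, adjusted p = 0.12). As in RT112, ATF4 and EIF2AK3 did not pass, with ATF4 at 297 and 254 CPM under siControl.1, 287 and 333 under siControl.2, 314 and 257 under siFOXA1.1 and 285 and 303 under siFOXA1.2 (-0.04 ± 0.17, adjusted p = 0.94) and EIF2AK3 at 0.29 ± 0.39, adjusted p = 0.75. The libraries of EIF2AK3 lay at 14.3 and 18.6 CPM under siControl.1, 15.4 and 11.9 under siControl.2, 13.7 and 22.9 under siFOXA1.1 and 16.7 and 10.8 under siFOXA1.2. PPP1R15A was at 0.55 ± 0.24, adjusted p = 0.2.

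ATF6 and its targets HYOU1 and PDIA4 rose in SCaBER, and in the XBP1 branch PDIA6 did (0.49 ± 0.15, adjusted p = 0.049). Of 14 alternatives, 11 kept the call of PDIA4, 8 that of ATF6, 6 that of HYOU1 and 3 that of PDIA6. ATF6 was at 85.7 and 74.5 CPM under siControl.1, 112 and 109.9 under siControl.2, 217 and 116 under siFOXA1.1 and 132 and 118 under siFOXA1.2 (0.81 ± 0.23, adjusted p = 0.039), and 1 siFOXA1.1 library stood far above the other. HYOU1, the ER chaperone GRP170, showed the same pair, 276 and 159 CPM under siFOXA1.1 and 108 to 161 in the controls (0.77 ± 0.23, adjusted p = 0.048). PDIA4 (0.90 ± 0.21, adjusted p = 0.017) lay at 94.1 and 146 CPM, of which the lower value was within the siControl.2 libraries. HSPA5 did not rise here either, at 1181 and 1028 CPM under siControl.1, 1396 and 1437 under siControl.2, 1235 and 863 under siFOXA1.1 and 1626 and 1560.1 under siFOXA1.2 (-0.26 ± 0.16, adjusted p = 0.4).

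The siFOXA1.1 libraries of SCaBER differed from each other more than the pair of any other siRNA, and the members split between them. Chi-square per degree of freedom was 40.1, against 8.79 to 25.1, over the well-counted genes of each pair. Replicate 1 was the higher library for ATF6, HYOU1, SDF2L1 (101 and 50.2 CPM) and PDIA3 (806 and 485). Replicate 2 was the higher for XBP1 (67.1 and 123), DNAJB9 (9.58 and 23.2), DNAJC3 (68.5 and 118), SYVN1 (19.8 and 52.6), HERPUD1 (21.9 and 79.6) and SEC61B (29.7 and 185). The XBP1 branch genes named here were thus higher in replicate 2, but they are not the whole branch. PDIA6 (807 ± 5.44 CPM, SD) and ERN1 (7.78 ± 0.064) hardly differed between the libraries. DNAJB11 changed by -0.28 without replicate 1 and by -0.023 without replicate 2. The ATF6 branch was divided between the libraries. Without replicate 1, 14 members were called, 13 higher and HSPA5 lower (-0.54, adjusted p = 0.02), with HERPUD1 at 1.66 (adjusted p = 0.00023) and XBP1 at 1.17 (adjusted p = 0.0012). ATF6 was then at 0.30 (adjusted p = 0.53) and HYOU1 at 0.33 (adjusted p = 0.46), and both calls were lost. Without replicate 2, 7 were called, 6 higher and SEC61B lower, with ATF6 at 1.19 (adjusted p = 0.00018) and HYOU1 at 1.12 (adjusted p = 0.00027). XBP1 was then at 0.29 (adjusted p = 0.66), HERPUD1 at -0.20 (adjusted p = 0.86) and PDIA4 at 0.55 (adjusted p = 0.22), where its call was lost. SEC61B was 1.202 (adjusted p = 0.00068) without replicate 1 and -1.44 (adjusted p = 0.004) without replicate 2. SESN2 and CHAC1 passed without either.

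ERN1, DNAJB9, HERPUD1 and XBP1 were not called in SCaBER with both libraries in the fit. ERN1 was at 3.61 and 0.300 CPM under siControl.1, 4.33 and 2.80 under siControl.2, 7.82 and 7.73 under siFOXA1.1 and 1.39 and 1.41 under siFOXA1.2 (1.55 ± 0.93, adjusted p = 0.37), the other members at 1.11 ± 0.57, adjusted p = 0.28 for DNAJB9, 1.02 ± 0.40, adjusted p = 0.15 for HERPUD1 and 0.80 ± 0.26, adjusted p = 0.076 for XBP1. The XBP1 libraries were at 60.1 and 73.4 CPM under siControl.1, 46.5 and 42.5 under siControl.2, 67.1 and 123 under siFOXA1.1 and 58.3 and 83.3 under siFOXA1.2, replicate 1 of siFOXA1.1 within the controls and replicate 2 above them. Uncalled members of SCaBER not named so far with a change ranged from -0.15 (DNAJB11) to 0.88 (DNAJC3).

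Both lines were compared directly. PDIA6, PDIA4 and SESN2 were called in both under siFOXA1.1 and 12 members in neither, and the SCaBER call of PDIA6 was kept in 3 of 14 alternatives. Of the 32 members tested, 16 were called in RT112 and 7 in SCaBER, beside 14.0% and 3.80% of all genes called higher. The overlap over all genes was not counted, so the shared number is no result about the members. The difference between the lines in the response to siFOXA1.1 passed for 0 members (edgeR; 2.59% of all genes passed, 2 members at an unadjusted p under 0.05, and 1, P4HB, with DESeq2). For P4HB, a subunit of prolyl hydroxylase and a disulfide isomerase, the difference was 0.61 ± 0.20, adjusted p = 0.13, from 0.72 ± 0.11 in RT112 and 0.10 ± 0.17 in SCaBER. For DNAJB9 it was 0.68 ± 0.75 and for SYVN1 0.92 ± 0.50, and neither passed. Without SCaBER siFOXA1.1 replicate 2 there were more calls, among the members and among all genes.

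The other siRNA, siFOXA1.2, moved few of these genes. In RT112 PDIA4 (0.85 ± 0.17, adjusted p = 0.0079) and CALR (0.36 ± 0.087, adjusted p = 0.035) rose and 0 members fell (edgeR; 1 at an unadjusted p under 0.05 and 0 with DESeq2), where 0.877% of all genes were called higher. Both calls were lost against siControl.2 alone, with PDIA4 at 0.27 ± 0.19 and CALR at 0.27 ± 0.10. They were also lost without siFOXA1.2 replicate 2. In SCaBER 0 members passed (edgeR; 4 at an unadjusted p under 0.05, 0 with DESeq2; 0.0373% of all genes). The largest SCaBER changes under siFOXA1.2 were those of CHAC1 (1.67 ± 0.41, adjusted p = 0.45) and SESN2 (0.94 ± 0.24, adjusted p = 0.45). Median changes of all members were 0.25 in RT112 and 0.22 in SCaBER. FOXA1 RNA was also less reduced by siFOXA1.2 in RT112 than by siFOXA1.1 (difference -2.34 ± 0.50, adjusted p = 0.0015), and the part of that in the member values was not tested.

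Set against each other in RT112 by edgeR with TMM scaling, the siFOXA1 siRNAs differed for 10 members. All were higher under siFOXA1.1 (11.4% of all genes were called higher). They were PPP1R15A (1.31 ± 0.28), DNAJB9 (1.31 ± 0.46), HERPUD1 (0.92 ± 0.27), XBP1 (0.84 ± 0.19), SESN2 (0.82 ± 0.27), HYOU1 (0.80 ± 0.22), DERL1 (0.77 ± 0.20), P4HB (0.69 ± 0.13), CALR (0.36 ± 0.10) and PDIA6 (0.34 ± 0.11), with adjusted p-values of 0.0005 to 0.044. At an unadjusted p under 0.05 edgeR had 2 members lower, EDEM1 and PDIA3, and DESeq2 called 0 lower. With library totals 6 members were called higher and 2 lower, among 1199 higher and 2094 lower of all genes. PDIA3 was lower under siFOXA1.1 with the replicate block (-0.36 ± 0.13, adjusted p = 0.039). XBP1 lay below all 4 controls under siFOXA1.2 and overlapped the upper ones under siFOXA1.1. It was 122 and 104 CPM under siFOXA1.1 and 57.7 and 69.2 under siFOXA1.2, and the controls spanned 73.9 to 109.5. In SCaBER 0 members passed (edgeR; 4 at an unadjusted p under 0.05 and 1, HSPA5, with DESeq2; 4.13% of all genes). HSPA5 was there at -0.61 ± 0.19, adjusted p = 0.091, and at -0.62 ± 0.17, adjusted p = 0.024 with the replicate block. Both siFOXA1 siRNAs were also pooled, in a fit with 1 mean per target, whose spread includes the differences between siRNAs. There 0 members passed in RT112 (0.0966% of all genes, 9 members at an unadjusted p under 0.05, 0 with DESeq2). In SCaBER 0 passed as well (0.00746%, 10 members at an unadjusted p under 0.05, and 1, SESN2, with DESeq2). The response to siFOXA1.2 differed between the lines for 0 members (0.0453% of all genes; 2 at an unadjusted p under 0.05, 0 with DESeq2).

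The promoter elements shown above were found in members that rose and in members that did not. Of the 7 members with ERSE, 4 were called higher in RT112 under siFOXA1.1 (PDIA6, HSP90B1, CALR and CRELD2) and 1 in SCaBER (PDIA6). Their medians were 0.38 in RT112 and 0.41 in SCaBER. Of all 32 tested members 16 were called in RT112 and 7 in SCaBER, beside 14.0% and 3.80% of all genes called higher. The call of HSP90B1 was kept in 3 of 14 alternatives, that of CRELD2 in 6 and that of PDIA6 in SCaBER in 3. HSPA5 and CANX, which hold the same letters, were at 0.057 and 0.011 in RT112. Of the 3 with ERSE-II, HERPUD1 was called higher in RT112 and HYOU1 in SCaBER (kept in 6 of 14 alternatives), and SDF2L1 in neither. CHAC1 and HERPUD1, the tested members with the ATF4 element, were at 1.75 and 1.23 in RT112 and at 1.76 and 1.02 in SCaBER. In RT112 HERPUD1 was called and CHAC1 was not. In SCaBER CHAC1 was called (kept in 13 of 14 alternatives) and HERPUD1 was not. DNAJB9 and SYVN1, which rose most in the XBP1 branch in RT112, held none of the 3 elements in these windows.

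**Figure D5:**
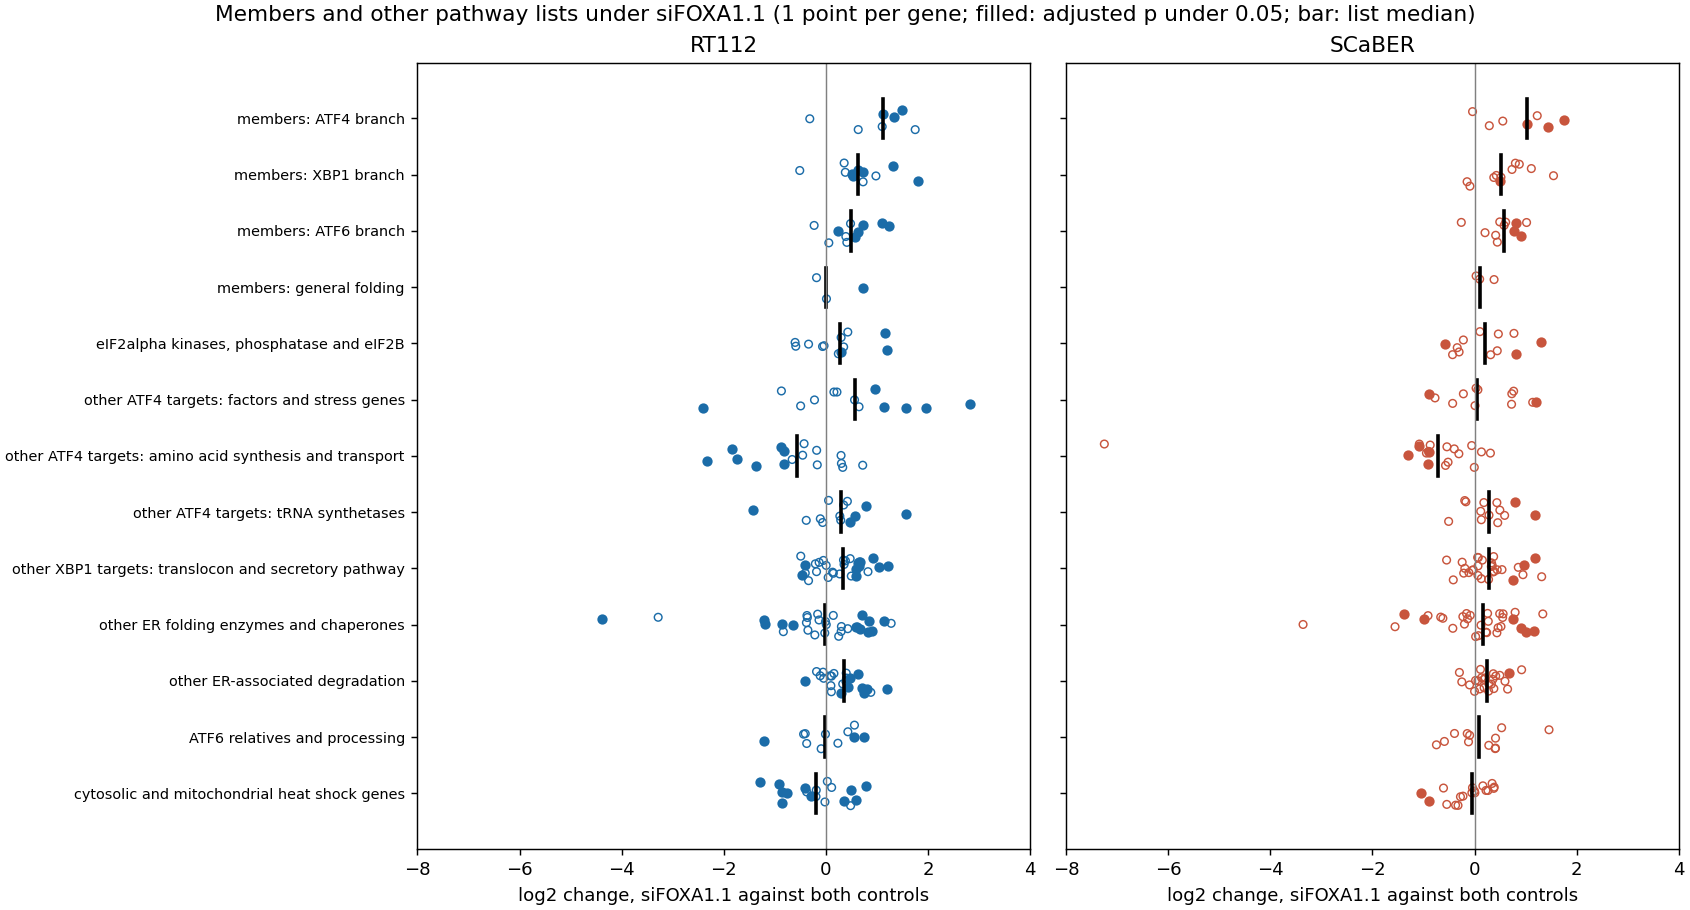
Log2 change under siFOXA1.1 against both controls for each gene of the 4 member groups and of 9 other pathway lists, in RT112 (left) and SCaBER (right); filled points passed an adjusted p of 0.05 and black bars are list medians. The ATF4 branch members have medians above 1 in both lines, while the ATF4 targets for amino acid synthesis and transport have medians below 0; the point near -7 in SCaBER is ALDH1L2, which did not pass.

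Other genes of the same pathways were read from 9 lists. Their counts under siFOXA1.1 stand against 14.0% of all genes called higher and 15.1% lower in RT112, and 3.80% higher and 4.07% lower in SCaBER. Regulators of eIF2alpha had 3 of 12 higher and 0 lower in RT112 and 2 higher and 1 lower in SCaBER under siFOXA1.1. EIF2AK2, the eIF2alpha kinase PKR that responds to double-stranded RNA, rose in both lines. It was at 249 and 328 CPM under RT112 siFOXA1.1 and at 127 and 112 under siControl.1 (1.19 ± 0.14, adjusted p = 1.5e-06), and it rose by 1.30 ± 0.19, adjusted p = 0.00069 in SCaBER. EIF2B5, the catalytic subunit of eIF2B, rose as well (1.17 ± 0.16 and 0.80 ± 0.21). The PERK gene EIF2AK3 did not pass in either line, as given above. The study reported that interferon response genes rose in both lines after FOXA1 knock-down. The part of that in the rise of EIF2AK2 or of other listed genes was not tested.

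Known ATF4 targets were read as separate lists of stress genes, amino acid genes and tRNA synthetases, and differences between the lists were not tested. Of the factors and stress genes, 5 of 13 rose and 1 fell in RT112, and 1 of 12 rose and 1 fell in SCaBER. ATF3, a stress-induced factor, rose in both lines (1.96 ± 0.35, adjusted p = 0.00022 and 1.19 ± 0.31, adjusted p = 0.026). GDF15, a stress cytokine, was at 36.2 and 35.7 CPM under RT112 siFOXA1.1 against 4.23 and 7.38 under siControl.1 and 3.65 and 5.24 under siControl.2 (2.83 ± 0.47, adjusted p = 0.0001). DDIT4, an inhibitor of mTORC1, fell in RT112 (-2.40 ± 0.27, adjusted p = 1.3e-06), and CEBPD fell in SCaBER (-0.89 ± 0.19). In the list of amino acid synthesis and transport, 7 of 16 fell and 0 rose in RT112, and 4 of 18 fell and 0 rose in SCaBER, with medians of -0.56 and -0.72. The serine synthesis gene PSPH and the transporter gene SLC1A4 fell most in RT112 (-2.33 ± 0.49 and -1.84 ± 0.50) and PHGDH and SLC1A5 in SCaBER (-1.31 ± 0.24 and -1.09 ± 0.21). Among tRNA synthetases 4 of 13 rose and 1 fell in RT112 and 2 rose and 0 fell in SCaBER, with CARS (1.58 ± 0.22) up and AARS (-1.44 ± 0.20) down in RT112, WARS up in SCaBER (1.18 ± 0.18), and SARS up in both (0.78 ± 0.13 and 0.79 ± 0.18).

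On the ER side, the translocon and secretory list had 9 of 29 higher and 2 lower in RT112 and 3 higher and 0 lower in SCaBER. MCFD2, a cargo receptor subunit for ER exit, rose in both (1.21 ± 0.15 and 1.19 ± 0.22), but it was split between the controls as PDIA4 was, at 24.3 and 41.5 CPM under siControl.1 and 91.8 and 94.0 under siControl.2 in SCaBER. SEC62 rose in RT112 (1.04 ± 0.10), where SSR4 (-0.46 ± 0.14) and KDELR1 (-0.41 ± 0.11) fell, and SEC23B rose in SCaBER (0.97 ± 0.27). Other genes of ER-associated degradation had 8 of 24 higher and 1 lower in RT112 and 1 higher and 0 lower in SCaBER. FAF2, which recruits the ATPase that pulls proteins from the membrane, rose in both lines (1.19 ± 0.14 and 0.67 ± 0.18), and in RT112 OS9, a lectin of the SYVN1 complex, rose (0.80 ± 0.15) and UBE2G2 fell (-0.40 ± 0.12).

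Other ER folding enzymes were mixed, with 7 of 31 higher and 5 lower in RT112 and 4 of 32 higher and 2 lower in SCaBER. QSOX1, a sulfhydryl oxidase, rose in both (0.90 ± 0.13 and 1.16 ± 0.17), FKBP14 in RT112 (1.13 ± 0.19) and SIL1 in SCaBER (1.00 ± 0.28). FKBP9, a prolyl isomerase of the ER, was at 2.00 and 0.484 CPM under RT112 siFOXA1.1, 1 library near the floor, against 26.9 and 20.9 under siControl.1 and 26.6 and 32.8 under siControl.2 (-4.38 ± 0.49, adjusted p = 1.2e-06). It fell in SCaBER too (-1.38 ± 0.34, adjusted p = 0.02), as GANAB did in both (-1.20 ± 0.16 and -0.98 ± 0.25). The list of ATF6 relatives and processing genes also held TMBIM6, a gene of neither kind. In this list 2 of 11 rose and 1 fell in RT112 and 0 of 12 passed in SCaBER. MBTPS1, the protease that makes the first cut in ATF6, rose in RT112 (0.74 ± 0.17), TMBIM6 rose (0.54 ± 0.088) and CREB3 fell (-1.21 ± 0.26). Heat shock genes outside the ER had 4 of 18 higher and 7 lower in RT112 and 0 higher and 2 lower in SCaBER. HSPD1, the mitochondrial chaperonin, fell in both (-1.29 ± 0.10 and -0.89 ± 0.22), and in RT112 TRAP1 fell (-0.91 ± 0.21) while BAG3 (0.79 ± 0.19) and HSPB1 (0.59 ± 0.14) rose. HSPE1 fell in SCaBER (-1.05 ± 0.29).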

How the data were processed

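RNA was sequenced from the 3' end (Lexogen FWD kit, single reads) in 16 libraries, 2 for each of 4 siRNAs in each of 2 lines. The authors trimmed reads with TrimGalore 0.6.2, aligned them to hg38 with STAR 2.6.1a and let STAR count genes on GENCODE 29, per the deposited configuration and the submitters' processing notes, whereas the methods of the study name another build. The raw counts per gene were deposited as whole numbers, with replicates not pooled. The authors also deposited TPM values, scaled per gene length, which were used here for the order of levels between genes and for no test. The labels give 10 nM of siRNA and the methods of the study give an amount in ng.

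Counts were tested with edgeR 4.0.16 (limma 3.58.1, R 4.3.3): filterByExpr by siRNA group, TMM scaling, quasi-likelihood F tests, and p-values adjusted by Benjamini-Hochberg over 13462 genes in RT112, 13407 in SCaBER, 14036 between the lines and 15464 for the interaction. Each line was fitted with 1 mean per siRNA, and the 2 control siRNAs were averaged. For both siFOXA1 siRNAs pooled, each line had 1 mean per target instead, so differences between siRNAs of a target entered the spread. The common coefficient of variation between libraries was then 0.494 in RT112 and 0.469 in SCaBER. With 1 mean per siRNA it was 0.350 and 0.411. DESeq2 1.42.0, library totals, no filter, each control alone, each library left out and a replicate block were the alternatives. CPM used TMM factors over all 16 libraries, and within-batch differences log2(CPM + 1). On simulated counts the fit was checked for the recovery of known changes. The floor of 3 counts covers counting error alone, since reads were not collapsed by molecular identifiers here, whereas standard errors and p-values come from the spread between libraries. Separate cultures are not stated, so that spread may be technical.

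The labels number libraries by experiment batch, so equal numbers pair the samples by label. Deviations from the siRNA means of same-numbered libraries correlated at r = -0.014 to 0.00064 in RT112 and 0.0029 to 0.142 in SCaBER (6 pairs each). In the paired fit with the replicate block, 11 members were called in SCaBER under siFOXA1.1.

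Members and lists were chosen with earlier results of these data known. All 34 members were accounted for. Libraries are given for the members with the largest changes and for the sensors, factors and HSPA5. From each other list, up to 2 called genes with the largest rise and 2 with the largest fall per line are named, given a mean of at least 20 counts.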

Additional observations from a re-analysis of the deposited data

Results flagged for a closer look

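In 130 sets of 4 libraries (each member, line and target), 8 had a library far from the other 3, by Dixon's criterion on the gap over the whole range, and chance alone would mark about 1 set in 20. Of these, 4 were siFOXA1.1 libraries of SCaBER. Replicate 1 stood apart for ATF6 (217 CPM against 116 to 132 CPM in the other siFOXA1 libraries) and HYOU1 (276 CPM against 159 to 171 CPM), and replicate 2 for DNAJB9 (23.2 CPM against 7.42 to 10.0 CPM) and PDIA4 (146 CPM against 94.1 to 98.8 CPM). In RT112 DNAJB11 was high in siFOXA1.1 replicate 1 (93.6 CPM against 64.2 to 66.2 CPM) and, among the controls, in siControl.2 replicate 1 (70.6 CPM against 59.7 to 61.4 CPM). SEC61B was high in RT112 siControl.2 replicate 2 (128 CPM against 91.2 to 96.1 CPM) and SYVN1 in SCaBER siControl.1 replicate 2 (46.5 CPM against 20.9 to 25.1 CPM). Groups of 4 hold 2 siRNAs, so a library can stand apart within its target without differing from its own siRNA.

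The difference between the lines in the response to siFOXA1.1 passed for 0 members by the edgeR interaction test, where 2 had an unadjusted p under 0.05 and DESeq2 called P4HB. Of the other pathway genes named, it passed for 3 (log2, RT112 minus SCaBER): FKBP9 at -3.01 ± 0.61, adjusted p = 0.0091, DDIT4 at -2.43 ± 0.39, adjusted p = 0.0012 and GDF15 at 3.25 ± 0.82, adjusted p = 0.037. All 4 RT112 control libraries of FKBP9 and DDIT4 were above both siFOXA1.1 libraries, and those of GDF15 below. In SCaBER the siFOXA1.1 changes were -1.38 ± 0.34 for FKBP9, 0.0083 ± 0.22 for DDIT4 and -0.43 ± 0.65 for GDF15.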

How the results depend on the processing

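Values here are numbers of members called. The number of all genes called also changed between settings. Under siFOXA1.1 in SCaBER it was 1055 in the main fit and 1442 with the replicate block or DESeq2. Under siFOXA1.2 in RT112 it was 239 in the main fit, 321 against siControl.1 alone and 146 against siControl.2 alone. Leaving out 1 library left its siRNA with 1 library in that line, and these numbers moved too. Such member counts alone are no result about the members. With siControl.2 as the lone control, siFOXA1.1 called 10 members in RT112 and 1 in SCaBER, and siFOXA1.2 called 0 in RT112. With siControl.1 alone, siFOXA1.1 called 4 in SCaBER and siFOXA1.2 called 4 in RT112. With the replicate block, 11 members were called in SCaBER under siFOXA1.1, 1 between the SCaBER controls and 1 between the SCaBER siFOXA1 siRNAs, and it changed no other call of a member than those named beside their results. DESeq2 gave 11 in SCaBER under siFOXA1.1, and 1 each between the SCaBER controls, between the SCaBER siFOXA1 siRNAs, for both siFOXA1 siRNAs pooled in SCaBER and for the siFOXA1.1 difference between the lines. Without the filter there was 1 in SCaBER under siFOXA1.2, 1 between the SCaBER controls, 1 between the SCaBER siFOXA1 siRNAs and 2 for both pooled in SCaBER. Library totals left 1 in RT112 under siFOXA1.2, and gave 6 higher and 2 lower between the RT112 siFOXA1 siRNAs. The causes were not tested.

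Leaving out 1 library gave 13 to 16 members for RT112 siFOXA1.1 and 3 to 14 for SCaBER siFOXA1.1 (3 without siControl.2 replicate 1, 4 without siControl.2 replicate 2 or siFOXA1.2 replicate 1, 14 without siFOXA1.1 replicate 1). It gave 0 to 2 for siFOXA1.2 in RT112 (1 without siFOXA1.2 replicate 1 or siControl.1 replicate 2, 0 without siFOXA1.2 replicate 2) and 0 to 2 in SCaBER (2 without either siFOXA1.1 library, 1 without siControl.1 replicate 1). The RT112 controls gave 2 to 7 (2 without siControl.2 replicate 1 or siControl.1 replicate 2, 7 without either siFOXA1.1 library) and the SCaBER controls 0 to 1 (1 without either siFOXA1.1 library). The siFOXA1 siRNAs gave 5 to 11 in RT112 (5 without siFOXA1.2 replicate 2) and 0 to 6 in SCaBER (6 without siFOXA1.1 replicate 1, 1 without replicate 2). Both pooled in SCaBER gave 0 to 1 (1 without siFOXA1.2 replicate 1), the siFOXA1.1 difference between the lines 0 to 4 (4 without SCaBER siFOXA1.1 replicate 2), and the lines under siControl 17 to 19. It gave 0 each time for both pooled in RT112 and for the siFOXA1.2 difference between the lines.

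Over single members and alternatives, 2023 values stayed on the same side of the threshold, 86 lost a call and 58 gained a call in the same direction. Of the 2023, 87 had the opposite sign and were uncalled both times. In 2 more the sign changed with a call on one side. HSP90B1 in RT112 under siFOXA1.1 was -0.073 against siControl.2 alone, and SEC61B in SCaBER was 1.202 without siFOXA1.1 replicate 1 and -1.44 without replicate 2. With 2 libraries per siRNA, low members such as ERN1 and CHAC1 in RT112 had errors of 0.77 and 0.74 on the log2 scale under siFOXA1.1. Changes of that size cannot be told from 0 for them, and the part of depth in these errors was not tested.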
